A study of Homo sapiens with 7 samples.

Results

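The genes described here encode the subunits, assembly chaperones and regulators of the human proteasome, chosen as every gene symbol of the form PSMA to PSMG followed by a number in the deposited counts of polyadenylation sites (PASs). There were 46 such genes among 16044 genes with a PAS on their own strand, and 44 of the 46 were listed in all 3 tables. The libraries were made from HEK293 cells, an established human embryonic kidney line, by 3′READS, which sequences RNA 3′ ends so that each read marks a cleavage and polyadenylation site. Control cells (siCtrl) received a control siRNA. The other cells received siRNAs against Star-PAP (siStar-PAP), PAPα (siPAPα), PAPγ (siPAPγ) or both PAPα and PAPγ (siPAPα+γ), which are poly(A) polymerases encoded by TUT1, PAPOLA and PAPOLG. There was 1 library per condition and batch, or 7 in all. The siStar-PAP, siPAPα, siPAPγ and siPAPα+γ libraries were compared with 1 siCtrl library, that of batch 1, so these 4 comparisons share a control. The batch of siPAPα+γ is not given in the sources used here. Batch 2 held a further siCtrl and a further siStar-PAP library, made by the 3′READS+ protocol.

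The proteasome degrades proteins marked with ubiquitin. Its 20S core is a stack of α rings, which gate the entry, and β rings, which hold the peptidase sites. The 19S particle caps the core with a ring of ATPases that unfold substrates and a set of non-ATPase subunits that bind ubiquitin and remove it. Dedicated chaperones build the core and the base of the cap and leave the finished particle. Dividing cells depend on proteasomes, and most subunit genes are active in cultured cells such as these.

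The sites at which the results turn are shown as the 30 nt that end at the listed position, read from GRCh37 (hg19) on the strand of the gene, with the polyadenylation signal AATAAA in capitals. PSMB6 and PSMD9 are shown because they differed from siCtrl in the same direction in all 5 comparisons, as did other genes such as PSMG2 and PSMG3. PSMF1 and PSME3 differed in the use of their sites. PSMD11 and PSMC6 differed by more than 100-fold between the siCtrl libraries, and PSMA7 gave the most reads. All the positions lie in annotated exons of their genes.
PSMB6, chr17:4701761-4701790, plus strand: gcaaaatttAATAAAgtttgtcacagagaa
PSMD9 proximal, chr12:122354521-122354550, plus strand: ttAATAAAgagttttacagtgctgatatga
PSMD9 distal, chr12:122355740-122355769, plus strand: cagactatAATAAAcacagcttgcccagtt
PSMF1 proximal, chr20:1146091-1146120, plus strand: aatgtcaatacagaattcatgttgccggtt
PSMF1 distal, chr20:1147936-1147965, plus strand: gccttaacAATAAAcatcagcactaagtga
PSME3 middle, chr17:40995236-40995265, plus strand: caggtactttgacctctttctaaagccgca
PSME3 distal, chr17:40995748-40995777, plus strand: AATAAAgtttcctcatcttccaccttgcaa
PSMD11 proximal, chr17:30809146-30809175, plus strand: ttcatAATAAAtttatattttgtaaaagga
PSMD11 middle, chr17:30809369-30809398, plus strand: cAATAAAaataatttttttttttttcaaaa
PSMC6, chr14:53194681-53194710, plus strand: gAATAAAatctgtttgattcagttctccta
PSMA7, chr20:60711789-60711818, minus strand: gtgtcctacAATAAActtccgtatttttaa

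The major site of a gene is the PAS with the most reads. On the strand of the gene, AATAAA lay within the 40 nt that end at the major site in 37 of the 46 proteasome genes, ATTAAA without AATAAA in 7, and neither in 2 (PSMB5 and PSMF1). Over the 128 listed positions of proteasome genes, some of which are the same site placed a few nt apart in different tables, 58.6% had AATAAA, 14.1% had ATTAAA alone and 27.3% had neither. The shares among the 72453 positions of all genes were 45.2%, 15.7% and 39.1%. Over all genes the signal began a median of 23 nt from the listed position, and at the PSMB6 site it began 21 nt from it. The trimer ATA, searched on the same strand because AUA belongs to the motif linked to Star-PAP, lay between 100 and 41 nt upstream of 51.6% of the positions of proteasome genes and 59.6% of those of all genes.

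The tables held between 2362875 and 16245257 reads per library. Levels are given as RPM, the reads of a gene scaled by the PASS reads of the library. PASS reads are uniquely mapped reads with untemplated Ts, and RPM is per 1000000 of them. As a read stands for an RNA 3′ end, RPM was not divided by gene length. The targeted genes gave few reads. TUT1 fell from 83 reads in siCtrl to 2 in siStar-PAP in batch 1, but it had 6 and 4 reads in batch 2, where the KD could not be checked. PAPOLA had 71 reads in siCtrl against 12 in siPAPα and 8 in siPAPα+γ. PAPOLG had 5 reads in siCtrl (0.438 RPM, 95% Poisson interval 0.142 to 1.02) against 15 in siPAPγ, with an interval of 0.567 to 1.67 RPM, so this library did not show the KD of its target and its label could not be checked. siPAPα+γ had 6 reads of PAPOLG. The study reported the KDs at the protein level by immunoblot, which these reads do not address. All intervals here are at the 95% level and cover counting error only.

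Levels of the proteasome genes spread widely. PSMA7, a subunit of the α ring, gave the most reads in every library, with 2504 RPM in siCtrl of batch 1 and 29.0% of all proteasome reads there. PSMB6, PSMD8, PSMF1 and PSMA3 followed in the mean over the batch 1 libraries, at 656, 507, 488 and 470 RPM. PSMD8 is a non-ATPase subunit of the cap, and PSMF1 encodes an inhibitor of the core. At the low end the means were 1.14 RPM for PSMB9, 0.904 for PSMD10, 0.876 for PSMG1 and 0.600 for PSMC1, and PSMB8 was not listed in the table of batch 1. PSMB8 and PSMB9 encode catalytic subunits of the immunoproteasome, the form known from immune cells and from cells exposed to interferon. PSMB8 had 6 reads in siCtrl of batch 2 and 0 in siStar-PAP of batch 2, which allows up to 0.706 RPM (3 reads). The median of the 46 genes in siCtrl of batch 1 was 33.5 RPM, against 6.21 RPM over the 14296 genes with a read.

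**Figure D1:**
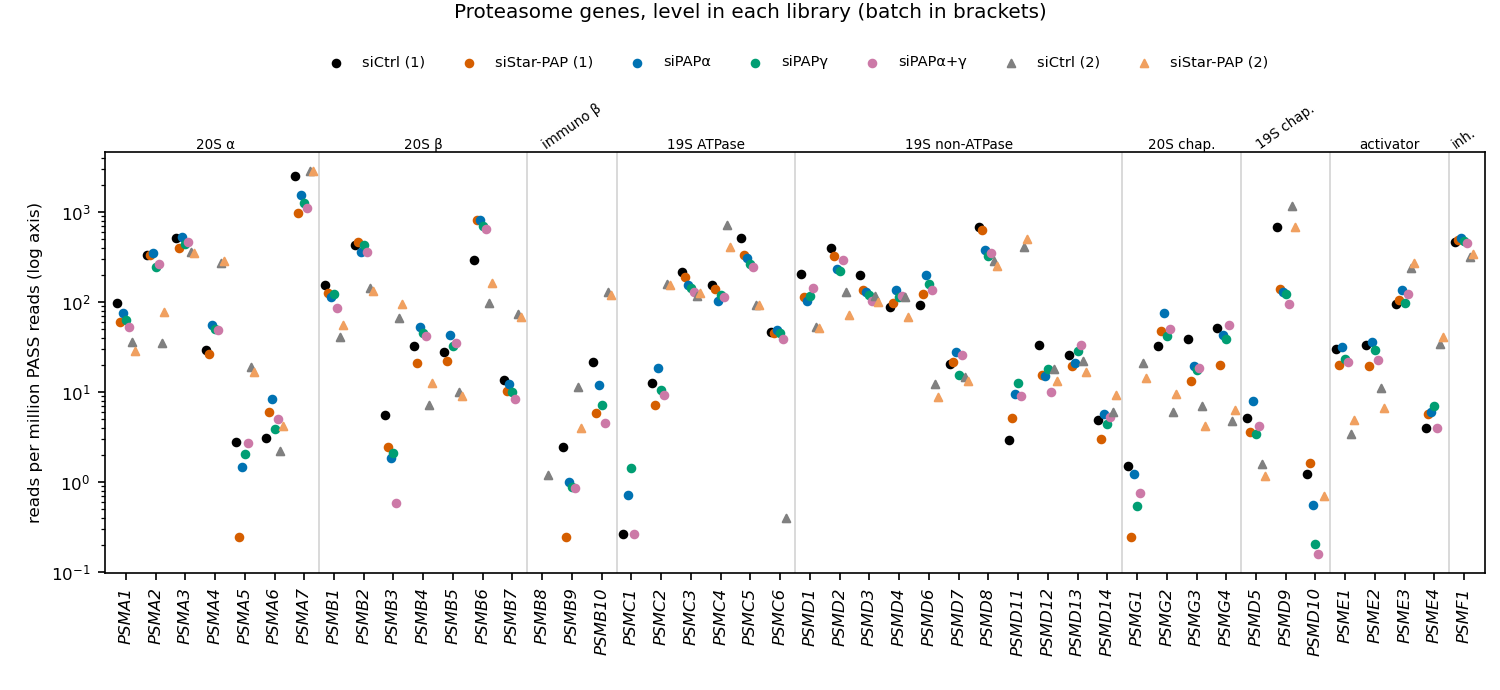
Level of each proteasome gene in each library, as RPM on a log axis, with genes grouped by role and batch 2 as triangles. Libraries with no read of a gene have no point. PSMA7 stands highest in every library, from 987 to 2873 RPM.

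Values of the libraries compared with siCtrl of batch 1 are given below as siCtrl first and then siStar-PAP, siPAPα, siPAPγ and siPAPα+γ, called the KD order. The summed level of the proteasome genes was 8620 RPM in siCtrl and 6365, 6885, 6010 and 5760 RPM in the KDs. PSMA7 held a large part of that difference, at 2504 RPM in siCtrl and 987, 1561, 1267 and 1125 RPM in the KDs. Without PSMA7 the sum was 6116 RPM in siCtrl and between 4635 and 5378 RPM in the KDs. On this scale every KD still lay below siCtrl. The listed sites held 70.9% of the PASS reads of siCtrl and 67.5%, 64.8%, 58.9% and 58.2% in KD order. The median gene was also below siCtrl in RPM, as given below, so these differences depend on the scaling. In batch 2 the sum was 8245 RPM in siCtrl and 7576 RPM in siStar-PAP, and PSMA7 stood at 2866 and 2873 RPM.

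The same gene could be at very different levels in the siCtrl libraries of the batches. PSMD11, a scaffold of the lid of the cap, was at 2.89 RPM in batch 1 and 408 in batch 2. PSMC6, an ATPase, was at 46.3 RPM in batch 1 and 0.396 in batch 2, where it had 2 reads. PSMA4 was at 29.1 and 272 RPM, PSMC2 at 12.5 and 158, and PSMA2 at 332 and 35.1. Of 43 proteasome genes with a read in both siCtrl libraries, 20 (46.5%) differed more than 4-fold, as did 30.7% of 12590 genes. At PSMD11 the difference lay at the middle site shown above, which had 1 read in batch 1 and 2008 in batch 2, while the proximal site had 16 and 37. The PSMC6 site shown above had all 529 reads of the gene in siCtrl of batch 1 and was not listed in the table of batch 2, whose 2 reads lay at position 53194884. Batch, protocol and culture cannot be told apart here, so levels were compared within a batch.

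**Figure D2:**
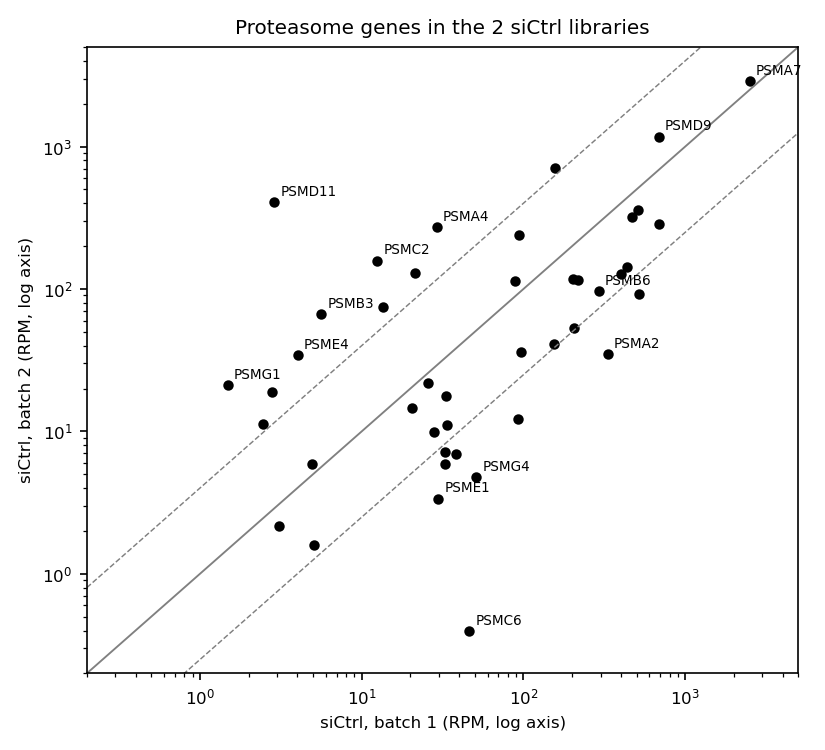
Level of the 43 proteasome genes with reads in both siCtrl libraries, batch 1 on the horizontal and batch 2 on the vertical axis, in RPM on log axes. The solid line marks equal levels and the dashed lines a 4-fold difference, which 20 genes exceeded.

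A gene was counted as lower or higher in a KD where its RPM differed more than 2-fold from siCtrl and the pair of libraries had more than 50 reads of it. A single library stands for each side, so there is no test and no p, and a ratio carries only its exact binomial counting interval. In siStar-PAP of batch 1, 7 of 40 proteasome genes were lower and 1 was higher, against 26.2% lower and 4.44% higher among 10079 genes. With siPAPα, 5 of 42 were lower and 5 higher, against 22.1% and 8.50% of 10808 genes. With siPAPγ, 5 of 41 were lower and 2 higher, against 20.7% and 5.67% of 10163 genes. The double KD had 8 of 41 lower and 3 higher, against 26.5% and 6.98% of 10022 genes. In siStar-PAP of batch 2, 1 of 39 was lower and 1 higher, against 11.7% and 3.55% of 7127 genes.

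These splits depend on the scaling. In KD order, the median log2 ratio of all genes on the RPM scale was -0.45, -0.26, -0.33 and -0.38, and it was -0.16 in batch 2. The medians of the proteasome genes were -0.34, -0.04, -0.36 and -0.29, and -0.09 in batch 2. With TMM factors, which centre the bulk of genes near no change, the counts of lower and higher proteasome genes were 3 and 4 in siStar-PAP, 2 and 7 in siPAPα, 3 and 5 in siPAPγ, 3 and 5 in siPAPα+γ, and 1 and 2 in batch 2. The shares of all genes were then 12.8% lower and 11.6% higher in siStar-PAP, 13.8% and 15.0% in siPAPα, 1118 of 10163 genes and 11.3% in siPAPγ, 15.0% and 14.7% in siPAPα+γ, and 8.26% and 5.98% in batch 2. Ratios relative to the median gene are therefore given in the text for PSMB6 and UBB, and are plotted by role for the proteasome genes. For other genes the direction can also turn on the scale. The RPM log2 ratios in siStar-PAP of batch 1 were -0.17 for PSMC4 and -0.09 for PSMD8, but 0.28 and 0.35 relative to the median gene. The shared siCtrl library enters 4 of the 5 comparisons. For siStar-PAP, whose batches have separate siCtrl libraries, 21 of 36 proteasome genes lay on the same side of the median gene in both batches (58.3%), against 65.3% of 6541 genes. Of 43 proteasome genes with a ratio in at least 1 comparison, 25 were past 2-fold on the RPM scale in none. Only 36 of them had a ratio in all 5, and no such count was made over all genes, so it cannot be set against them.

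**Figure D3:**
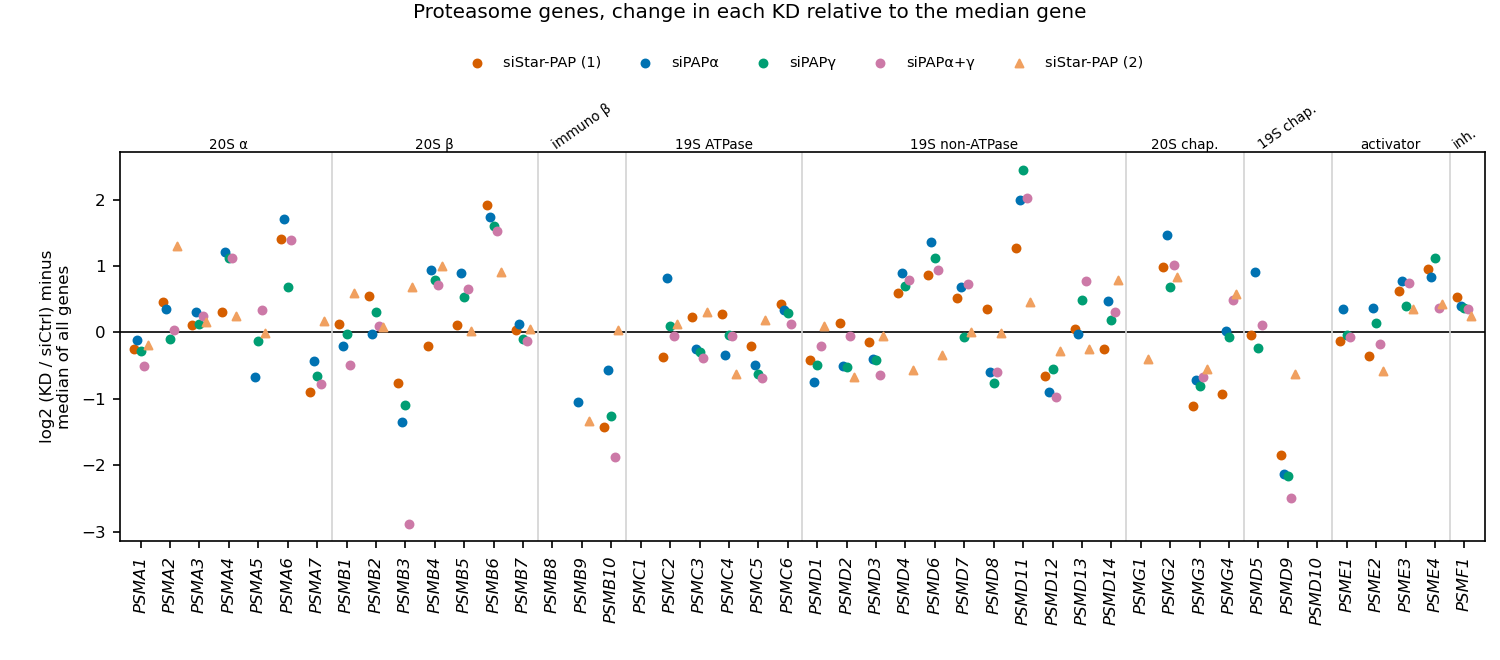
Log2 ratio of KD to siCtrl for each proteasome gene, minus the median log2 ratio of all genes in the same comparison, grouped by role. Circles share the siCtrl library of batch 1 and triangles are batch 2. PSMB6 lies above 0 and PSMD9 below 0 in all 5 comparisons. Of the 36 genes with a ratio in all 5, 9 lay above 0 and 5 below 0 in every one.

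PSMB6 encodes the constitutive β subunit with caspase-like activity, which PSMB9 replaces in the immunoproteasome. The gene lies at chr17:4699439-4701797, and its reads fell at the single site shown above, in exonic sequence past the coding region. Its level was 292 RPM in siCtrl and 815, 814, 704 and 645 RPM in KD order. Every KD was above siCtrl, by log2 ratios of 1.48, 1.48, 1.27 and 1.14, with a counting interval of 1.42 to 1.53 in siStar-PAP. In batch 2 the level was 97.1 RPM in siCtrl and 163 RPM in siStar-PAP, a log2 ratio of 0.75 (0.58 to 0.92). Relative to the median gene the log2 ratios lay between 0.91 and 1.92. The gene was past 2-fold in the 4 comparisons with siCtrl of batch 1, on the RPM scale and with TMM factors.

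PSMD9 went the other way. It encodes a chaperone that helps to assemble the ATPase base of the 19S cap and lies at chr12:122326638-122356203. Its level was 686 RPM in siCtrl and 140, 131, 122 and 94.0 RPM in KD order. Every KD was below siCtrl, by log2 ratios of -2.29, -2.39, -2.49 and -2.87. For siStar-PAP of batch 2 the level was 677 RPM against 1172 RPM in its siCtrl, a log2 ratio of -0.79 (-0.86 to -0.73). The direction was the same in both batches, and the difference in batch 2 was under 2-fold.

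**Figure D4:**
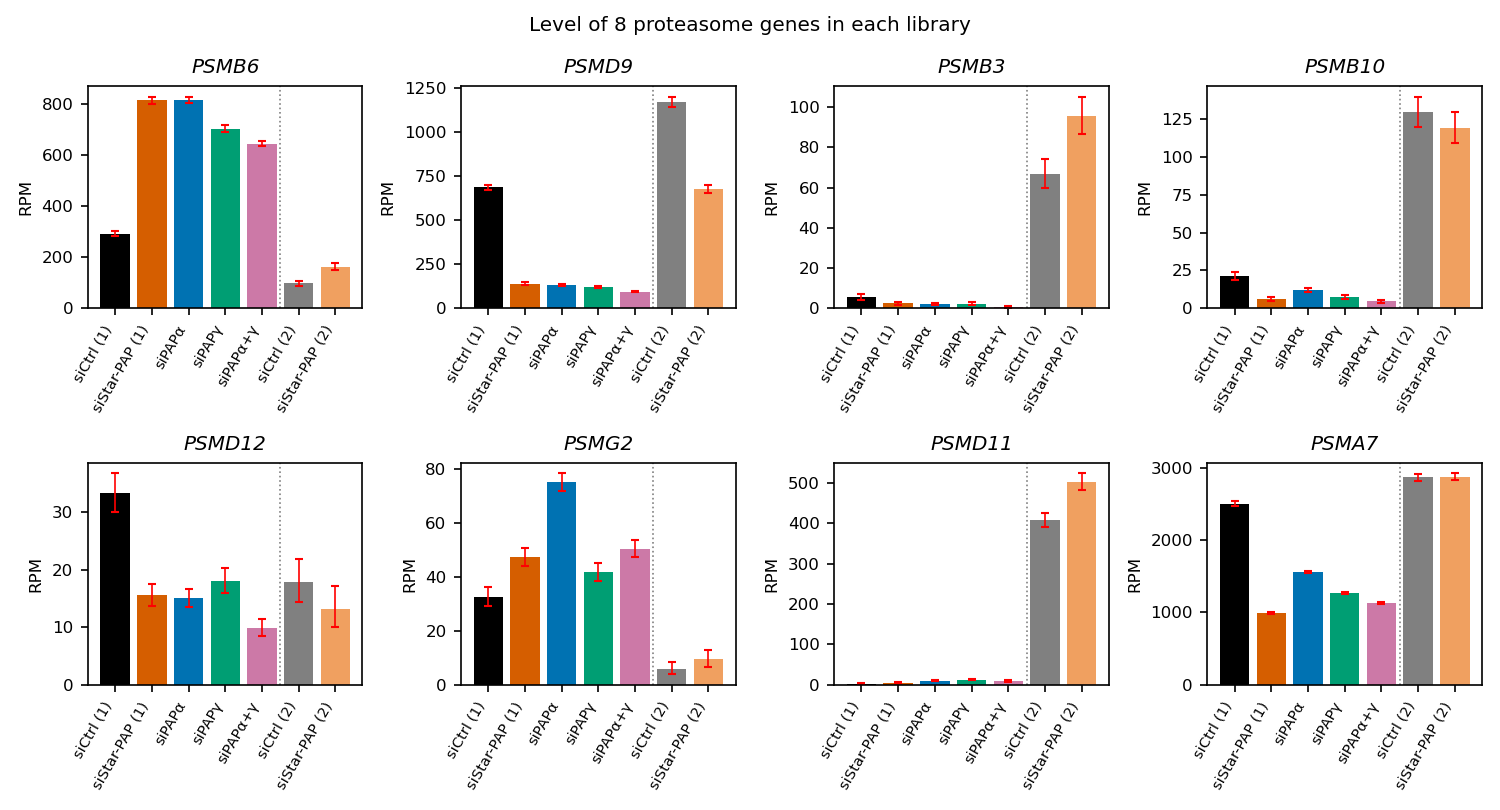
Level of 8 proteasome genes in RPM in each library, with bars for the value and red lines for the 95% Poisson interval of the reads. The dotted line parts batch 2 from the other libraries. PSMB6 is higher and PSMD9 lower in every KD library than in the siCtrl library of the same comparison.

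Among the genes of the α ring, PSMA7 had log2 ratios of -1.34, -0.68, -0.98 and -1.15 in KD order and 0.00 (-0.03 to 0.04) in batch 2. With TMM factors it was past 2-fold in no comparison. PSMA6 had 35 reads in siCtrl of batch 1 and 99, 209 and 58 reads in the first 3 KDs, with log2 ratios of 0.97 (0.40 to 1.57), 1.44 (0.92 to 2.00) and 0.36 (-0.27 to 1.00). Its reads in the table of the double KD were 28 and 93, a log2 ratio of 1.01. PSMA4 was at 29.1 RPM in siCtrl and 26.5, 56.2, 50.2 and 49.0 RPM in KD order, so that siStar-PAP was near siCtrl and the KDs of PAPα and PAPγ were above it. It was past 2-fold in 0 comparisons on the RPM scale and upward in 3 with TMM factors. PSMA2 was near siCtrl in siStar-PAP of batch 1, at 336 against 332 RPM, and was the gene past 2-fold upward in batch 2, at 77.2 against 35.1 RPM. PSMA1 and PSMA3 were within 2-fold in all 5 comparisons. PSMA5 had 32 reads in siCtrl and 4 in siStar-PAP of batch 1, which is under the read limit.

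The β ring holds the peptidase sites. PSMB5, with the chymotrypsin-like site, was at 27.9 RPM in siCtrl and 22.1, 43.4, 32.3 and 35.1 RPM in KD order. PSMB7, with the trypsin-like site, was at 13.6 RPM in siCtrl and between 8.46 and 12.4 RPM in the KDs. Neither was past 2-fold in any comparison, unlike PSMB6. PSMB3, which has no peptidase site, had 64 reads in siCtrl and 40, 46, 31 and 11 in KD order. The log2 ratios were -1.21, -1.61, -1.42 and -3.26, with an interval of -4.33 to -2.32 in the double KD. All 64 reads of siCtrl lay at the annotated end of the gene, where siStar-PAP, siPAPα and siPAPγ had 30, 29 and 23 reads, and the rest lay 2072 to 10691 nt past that end. For siStar-PAP of batch 2 the level was 95.5 RPM against 66.6 RPM, a log2 ratio of 0.52, opposite to batch 1.

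The β subunits of the immunoproteasome had few reads in batch 1. PSMB10, the counterpart of PSMB7, was at 21.4 RPM in siCtrl and 5.86, 12.0, 7.10 and 4.47 RPM in KD order. All KDs were below siCtrl, by log2 ratios of -1.87, -0.83, -1.59 and -2.26. The level in batch 2 was 130 RPM in siCtrl and 119 RPM in siStar-PAP, and the interval of the log2 ratio (-0.29 to 0.05) included 0. PSMB9 had 28 reads in siCtrl of batch 1 and 4, 25, 13 and 16 in KD order. The pairs with siStar-PAP of batch 1, siPAPγ and siPAPα+γ were under the read limit. In siPAPα the gene was past 2-fold downward, at 0.997 against 2.45 RPM, a log2 ratio of -1.30 (-2.14 to -0.47). It was also the gene past 2-fold downward in batch 2, with 57 reads in siCtrl and 17 in siStar-PAP, a log2 ratio of -1.50 (-2.37 to -0.69). With TMM factors PSMB9 was past 2-fold in 1 of these 2 comparisons.

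Of the 19S ATPases, PSMC5 was past 2-fold in siPAPα+γ, at 246 RPM against 518 RPM, but in no comparison with TMM factors, and the others were within 2-fold in every comparison in which they had enough reads. PSMC1 had 3 reads in siCtrl of batch 1 and was not listed in batch 2. PSMC4 was at 156 RPM in siCtrl and between 103 and 139 RPM in the KDs. For siStar-PAP of batch 2 it was at 410 RPM against 711 RPM, a log2 ratio of -0.79 (-0.88 to -0.71).

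The non-ATPase genes split in direction. PSMD11 had 33 reads in siCtrl and 85, 240, 186 and 169 in KD order, all above siCtrl in RPM. The log2 ratios were 0.83, 1.73, 2.12 and 1.64, with lower bounds of 0.23, 1.20, 1.58 and 1.09. In batch 2 its log2 ratio was 0.30 (0.21 to 0.39) on 2060 and 2134 reads. PSMD6 was at 92.4 RPM in siCtrl and 123, 198, 159 and 136 RPM in KD order, but at 12.3 RPM in siCtrl and 8.71 RPM in siStar-PAP of batch 2. PSMD12 was at 33.3 RPM in siCtrl and 15.5, 15.0, 18.05 and 9.90 RPM in KD order. With TMM factors PSMD12 was past 2-fold in no comparison, while PSMD11 was in 4. PSMD8 was at 684 RPM in siCtrl and 641, 380, 322 and 348 RPM in KD order, near siCtrl in siStar-PAP and lower in the KDs of PAPα and PAPγ. PSMD2, a scaffold of the base, was at 128 RPM in siCtrl and 71.8 RPM in siStar-PAP of batch 2. PSMD14, the deubiquitinase of the lid, was at 4.90 RPM in siCtrl of batch 1 and between 3.02 and 5.66 RPM in the KDs.

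The chaperones that assemble the core differed among themselves. PSMG2 was at 32.6 RPM in siCtrl and 47.4, 74.9, 41.8 and 50.3 RPM in KD order, and at 5.94 and 9.41 RPM in batch 2, so that every KD was above its siCtrl. PSMG3 was at 38.5 RPM in siCtrl and 13.2, 19.6, 17.5 and 18.6 RPM in KD order, and at 6.93 and 4.24 RPM in batch 2, so that every KD was below its siCtrl. The batch 2 intervals of both log2 ratios, -0.06 to 1.40 and -1.62 to 0.15, included 0. PSMG2 was past 2-fold upward in 1 comparison on the RPM scale and in 3 with TMM factors. PSMG3 was past 2-fold downward in 3 on the RPM scale and in 1 with TMM factors. PSMG4 was at 51.1 RPM in siCtrl and 19.8, 43.2, 38.9 and 55.3 RPM in KD order, lowest in siStar-PAP, but its log2 ratio in batch 2 was 0.42 (-0.43 to 1.27). PSMG1 had 17 reads in siCtrl of batch 1 and 4 to 31 in the KDs, and was at 21.2 and 14.4 RPM in batch 2. Of the other chaperones of the base, PSMD5 was at 5.08 RPM in siCtrl of batch 1 and between 3.45 and 7.97 RPM in the KDs. PSMD10 had 14 reads in siCtrl and 27, 14, 3 and 3 in KD order.

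The activators of the core were within 2-fold in all comparisons on the RPM scale. PSME1 and PSME2, which form the activator induced by interferon, were at 29.8 and 33.7 RPM in siCtrl of batch 1 and between 19.3 and 36.2 RPM in the KDs. PSME3, the nuclear activator, was at 94.4 RPM in siCtrl and between 98.6 and 135 RPM in the KDs. PSME4 was at 4.03 RPM in siCtrl and between 3.99 and 6.96 RPM in the KDs, and was past 2-fold upward in 1 comparison with TMM factors. The level of PSMF1 varied little, at 466 RPM in siCtrl, between 456 and 515 RPM in the KDs, and 320 and 338 RPM in batch 2.

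siStar-PAP was the KD with a library in each batch, and the libraries of both batches were fitted together with edgeR's quasi-likelihood test with batch as a block. PSMB6 was the 1 proteasome gene called of 43 tested, with a log2 ratio of 1.47 (SE 0.365) and an adjusted p of 0.0342 over 11878 genes, of which 1.08% were called lower and 1.23% higher. Both siStar-PAP libraries were above their siCtrl. No proteasome gene was called lower by edgeR. At an unadjusted p below 0.05 there were 2 lower and 5 higher proteasome genes, against 7.21% and 7.75% of all genes, and DESeq2 called 1 lower and 1 higher, against 0.536% and 1.25% of 15484 genes. PSMD9 had a log2 ratio of -1.19 (SE 0.376) with an adjusted p of 0.110 by edgeR and of 0.0233 by DESeq2. The other genes with an unadjusted edgeR p below 0.05 were PSMB9, PSMA2, PSMG2, PSMD11 and PSMA6, with log2 ratios of -1.90, 0.91, 0.97, 0.85 and 1.33 and adjusted p between 0.181 and 0.333. The fit has 1 residual degree of freedom. The PSMB6 call was lost when sites listed under several genes were left out (adjusted p = 0.0539). It was also lost without the block (adjusted p = 0.9997), in a fit that called 0 genes in all. With any 1 of the 4 libraries left out the log2 ratio was 0.12 to 2.62. Those fits had no block and 1 library in a group, so they mix batch with KD and cannot decide whether the call holds.

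Proteasome genes had few PASs. Of the 45 listed in batch 1, 23 had a single PAS (51.1%, against 29.5% of all genes), and they had 2.07 PASs on average, against 3.39. PSMD12 had the most, with 8. Of their 93 PASs, 86 lay in the 3′-most exon and 7 in introns. Intronic and upstream exonic PASs took 0.0294% of the proteasome reads of siCtrl (0.0197 to 0.0423) and 0.0608%, 0.0203%, 0.0405% and 0.108% in KD order. The interval of siStar-PAP (0.0468 to 0.0776) did not overlap that of siCtrl, and 1 intronic PAS of PSMB5 gave 34 of the 64 reads in siStar-PAP and 8 of the 29 in siCtrl. Without that PAS, left out after its reads were seen, the shares were 0.0285% (0.0192 to 0.0407) in siStar-PAP and 0.0213% (0.0132 to 0.0326) in siCtrl, with overlapping intervals, and 0.0139% and 0.0259% in siPAPα and siPAPγ. The value of siPAPα+γ comes from a table that lists 14 intronic and 2 upstream exonic PASs of these genes, against 7 intronic in batch 1. It is therefore not comparable with the siCtrl value above. An intronic PAS of PSMD3 listed there but not in batch 1 had 62 reads in siCtrl and 53 in siPAPα+γ. In batch 2 the shares were 0.0601% and 0.0839%, with overlapping intervals. Over all genes the share lay between 3.87% and 5.05%.

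The use of a PAS is its share of the reads of its gene. Shares were compared in genes with several PASs and at least 50 reads in each library, and a PAS was counted where its share differed by 10 or more percentage points, again with no test. In siStar-PAP of batch 1, 2 of 40 proteasome PASs in 2 of 13 genes were counted, against 28.5% of all PASs and 54.6% of all genes. For siPAPα it was 8 of 41 PASs in 5 of 13 genes (28.9% and 56.5% over all), and for siPAPγ 4 of 41 PASs in 2 of 13 genes (24.4% and 49.9%). In siPAPα+γ it was 8 of 60 PASs in 4 of 19 genes (23.7% and 50.8%), and in siStar-PAP of batch 2 it was 4 of 45 PASs in 2 of 18 genes (14.3% and 29.8%). At a change of 20 points no proteasome PAS was counted in any comparison, against 8.84%, 10.6%, 7.17% and 8.66% of all PASs in KD order and 3.44% in batch 2. PASs of a gene share its total, so that a higher share of one means a lower share of the others.

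The distal PAS of PSME3 took 24.3% of its reads in siCtrl of batch 1 (21.7 to 27.0) and 36.6%, 34.9%, 39.2% and 30.5% in KD order. All KDs were above siCtrl, and the lowest of their intervals (28.6 to 32.4, in siPAPα+γ) did not overlap that of siCtrl. This PAS lies 512 nt past the middle PAS, whose signal in the 40 nt window was ATTAAA. In batch 2 its share was 2.73% in siCtrl and 3.09% in siStar-PAP, with overlapping intervals. The distal PAS of PSMF1 took 7.04% of reads in siCtrl of batch 1 (6.36 to 7.76) and 1.24%, 1.73%, 2.08% and 0.829% in KD order, lower in each KD. In batch 2 it took 2.72% and 2.85%. The distal PAS of PSMD9 took 1.42% in siCtrl of batch 1 and 8.71%, 5.51%, 4.93% and 5.55% in KD order, higher in each KD. In batch 2 it took 0.321% in siCtrl and 0.521% in siStar-PAP, with overlapping intervals. The reads of its proximal PAS were 7733 in siCtrl and 2117 in siStar-PAP, while those of the distal PAS were 111 and 202. The differences at PSMF1 and PSMD9 were under 10 points, and these PASs were chosen after their values were seen.

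The main PAS of PSMA4 took 80.8% of its reads in siCtrl of batch 1 and 77.4%, 95.3% and 89.0% in the first 3 KDs, and 96.5% in siPAPα+γ against 80.1% in the siCtrl column of that table. The proximal PAS of PSMG4 took 70.9% in siCtrl against 75.9% in siStar-PAP and 83.6% in siPAPα, and the interval of siPAPγ was 71.3 to 78.5%. In siPAPα+γ it took 84.4% against 70.2% in the siCtrl column of that table. PSMD8 gave 86.6% of its reads at the proximal PAS in siCtrl of batch 1 but 30.1% in siCtrl of batch 2. siStar-PAP was above siCtrl in both batches, at 92.6% in batch 1 and 42.3% in batch 2. The last-exon PASs of PSMD12 differed from siCtrl in different directions. The most proximal one took 15.5% in siCtrl of batch 1, 8.17%, 10.9% and 33.7% in the first 3 KDs, and in siPAPα+γ 24.7% against 20.3% in the siCtrl column of that table. The next one took 30.3% in siCtrl and 21.8%, 19.7% and 17.6% in the first 3 KDs, and 26.3% against 39.7% for the double KD. A further one took 38 of 380 reads in siCtrl and 25.3% in siPAPα, and the PAS listed nearest to it in the table of the double KD took 14.8% in siCtrl and 31.2% in the KD. The distal PAS of PSME4, a gene on the minus strand, took 33.5% in siCtrl and 20.7% in siStar-PAP of batch 2. PSMC2, PSMD5 and PSMD14 had counted PASs in 1 comparison each, with changes of up to 10.98, 13.2 and 18.3 points, the last on 63 reads in siCtrl.

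**Figure D5:**
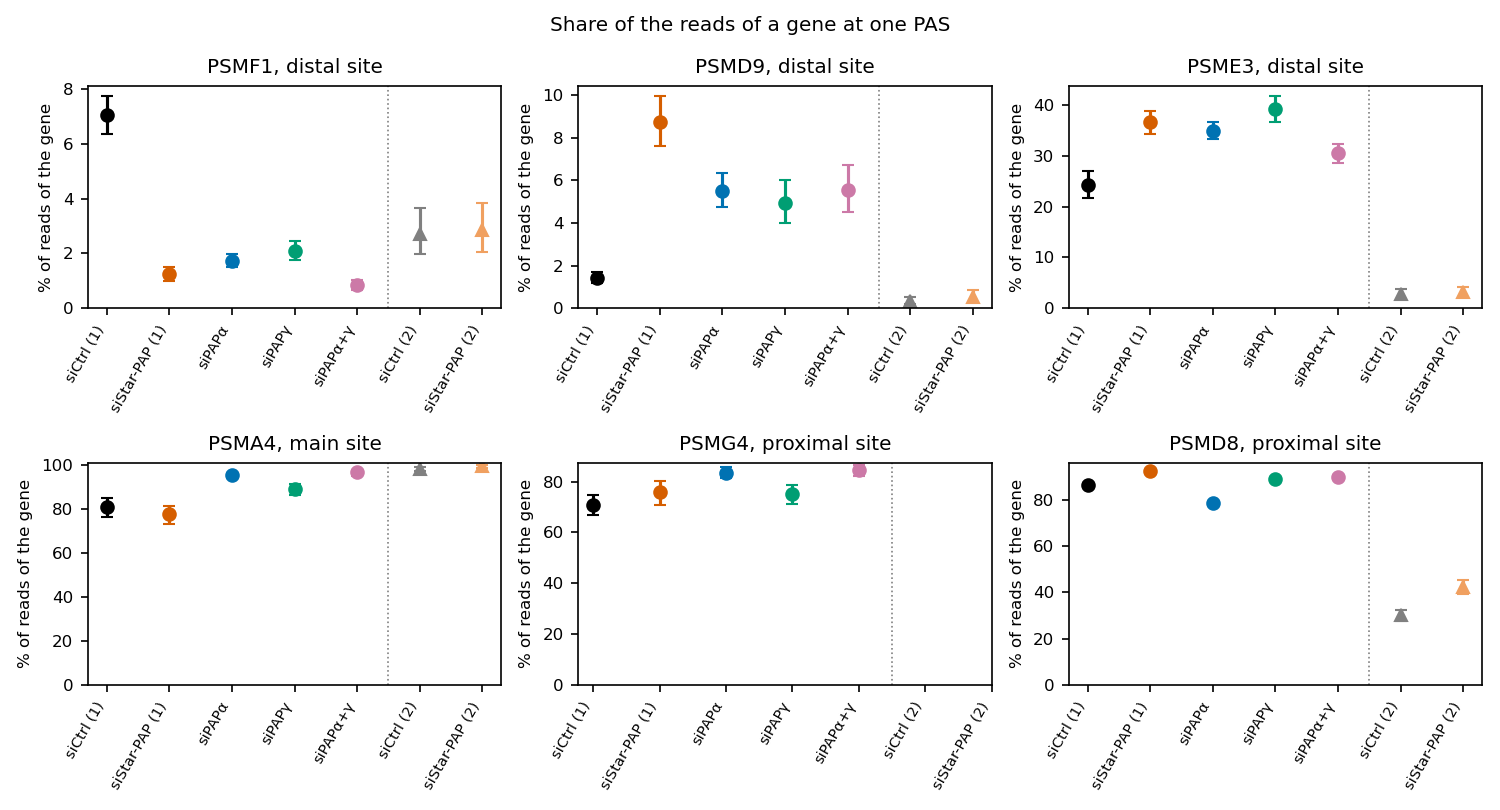
Share of the reads of 6 proteasome genes at 1 PAS of each, in percent, with exact 95% binomial intervals. Triangles are batch 2, where PSMG4 had too few reads. The distal PAS of PSMF1 is below siCtrl and that of PSME3 above siCtrl in all 4 KD libraries to the left of the dotted line, and both have overlapping intervals in batch 2.

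For siStar-PAP the relative use of PASs was tested over both batches with edgeR (diffSpliceDGE, batch as a block). Of 31 PASs in 13 proteasome genes 0 were called, and of all 9134 PASs 0 were called (0.00%). At an unadjusted p below 0.05 there were 2 proteasome PASs, the distal PASs of PSMD9 (log2 relative use 1.19, adjusted p = 1) and PSMF1 (-0.90, adjusted p = 1). Over all PASs there were 151 lower and 126 higher. No other tool was run for this test. On simulated data it recovered 0 of 200 PASs changed 4-fold and 137 of 200 changed 16-fold, so a count of 0 says little about smaller changes.

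A list of other genes of the ubiquitin and proteasome pathway was described in the same way. The counts past 2-fold were 4 lower and 0 higher of 21 in siStar-PAP of batch 1, 5 and 3 of 23 in siPAPα, 4 and 3 of 22 in siPAPγ, 4 and 3 of 21 in siPAPα+γ, and 1 and 0 of 20 in batch 2. In the same order the shares of all genes were 26.2% and 4.44%, 22.1% and 8.50%, 20.7% and 5.67%, 26.5% and 6.98%, and 11.7% and 3.55%. Among the ubiquitin genes, UBB had log2 ratios of -0.26, 1.95, 1.30 and 1.40 in KD order, of which the first was 0.19 relative to the median gene. RPS27A had log2 ratios of 0.79, 1.79, 1.18 and 1.22. USP14, a deubiquitinase that binds the cap, had log2 ratios of 0.24, 2.05, 1.37 and 1.74 in KD order and -0.04 in batch 2. NFE2L1, the transcription factor that drives proteasome genes when proteasomes are blocked, had log2 ratios of -1.66, -1.15, -0.73 and -1.09 in KD order and -1.35 in batch 2, with an adjusted p of 0.0751 by edgeR over both batches. NFE2L1 was past 2-fold downward in 4 comparisons on the RPM scale and in 2 with TMM factors. DDI2, the protease that activates it, had log2 ratios of -2.21, -2.45, -0.36 and -1.50. SHFM1, a small subunit of the lid, had -0.80, -2.01, -1.41 and -2.51. VCP, an unfoldase upstream of the proteasome, had -1.34, -0.48, -1.01 and -1.18, and was past 2-fold in no comparison with TMM factors.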

How the data were processed

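PASS reads of 7 HEK293 libraries stood in 3 tables, and siCtrl of batch 1 is in 2 of them. For each table the authors aligned reads to hg19 (bowtie2), retained unique alignments having 2 or more untemplated Ts, joined sites within 24 nt, dropped rare sites and deposited counts without normalization. The genes and lists were chosen with earlier results of these data known. Sense PASs were summed per gene as listed, without the upstream antisense sites.

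RPM used the PASS totals given with the study. The siStar-PAP libraries of both batches were fitted with edgeR 4.0.16 (TMM, quasi-likelihood test, Benjamini-Hochberg over all genes at 0.05, default filter) in R 4.3.3. DESeq2 1.42.0 was an alternative. The number of a library is its batch, except for siPAPα+γ, whose batch is not given. Each batch had its own siCtrl and protocol, which pairs the libraries of the fit. Deviations of siCtrl and siStar-PAP from their group means correlated at r = 0.871 over 11878 genes. Whether the libraries came from separate cultures is not given in the sources used here, so p measures the spread between these libraries only.

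Alternatives were the scaling, the read limits, a 1.5-fold and a 20-point threshold, a pseudocount of 1 read, PASs within 50 nt merged, the 3′-most exon only, the block, the edgeR filter and each library left out. 3 ways to treat sites listed under several genes were chosen after seeing the data. On simulated data for siStar-PAP over both batches, edgeR found 161 of 200 genes changed 4-fold and made 7 false calls over 11455 genes. The changed genes were drawn only from those above a minimum level, so recovery at lower levels was not tested. Genes were named for the 3 highest or lowest ratios of a comparison, the 5 highest or lowest levels, a call, a changed PAS share, a peptidase site or a role group of up to 4 genes. Others were named after their values were seen. Of the list of related genes, 1 is not reported here and was left out of its counts. Intervals used scipy 1.17.1 and sequences pysam 0.24.0. Gene positions are from GENCODE on GRCh37.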

Additional observations from a re-analysis of the deposited data

How the results depend on the processing

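Values are in the order siStar-PAP, siPAPα, siPAPγ, siPAPα+γ and siStar-PAP of batch 2, and only those that moved past the limit of 1.5 times or 1 SD are given. With TMM factors, and equally with DESeq2 size factors, lower genes numbered 3, 2, 3 and 3 in the first 4, and higher genes 4 in siStar-PAP, 5 in siPAPγ, 5 in siPAPα+γ and 2 in batch 2. The median log2 ratio was then 0.14 (TMM) and 0.14 (DESeq2) in siStar-PAP, 0.015 and -0.0083 in siPAPγ, 0.14 and 0.15 in siPAPα+γ, and 0.089 and 0.10 in batch 2. Scaling by the totals of the tables gave 2 higher genes in siStar-PAP, 3 lower and 5 higher in siPAPγ and 4 lower in siPAPα+γ. The shares of all genes were then 5.05% higher in siStar-PAP, 13.3% lower and 9.24% higher in siPAPγ and 18.9% lower in siPAPα+γ. At 1.5-fold there were 14 lower and 3 higher of 40 genes in siStar-PAP, against 43.2% and 10.2% of all genes. In siPAPα there were 14 and 10 of 42, against 36.5% and 17.2%. In siPAPγ there were 13 and 5 of 41, against 37.7% and 12.2%. In siPAPα+γ 5 of 41 were higher, against 14.3%. In batch 2 there were 7 and 5 of 39, against 26.3% and 11.4%. With over 200 reads in the pair, 3 of 37 were lower in siPAPα, against 1380 of 7242 genes. In batch 2 it was 0 of 25, against 259 of 3237 genes. At 20 points 0 PASs were counted in all 5 comparisons. With 200 reads of the gene, 1 of 28 PASs was counted in siStar-PAP, 3 of 38 in siPAPα+γ and 2 of 28 in batch 2. The shares of all PASs were 20.6%, 17.3% and 6.98%. For siStar-PAP over both batches, the fit with no replicate block called 0 proteasome genes and 0 genes in all. PSMB6 was also lost with sites of several genes left out (0 calls), an alternative chosen after seeing the data. The fits with 1 library left out had no block and assume that a lone library varies like the others. They mix batch with KD and cannot decide whether the PSMB6 call holds. PSMD9 was the 1 gene called lower by DESeq2 and the 1 called lower with no filter on low counts (adjusted p = 0.0391). The other causes were not tested. Of the alternative values 127 stayed within these limits. Depth limits PSMB3, PSMB9, PSMA6 and PSMD11 in batch 1, with 28 to 64 reads in siCtrl.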

Other observations

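Upstream antisense sites of the proteasome genes, which lie on the strand opposite to the gene, gave few reads. The 8 such sites of 5 genes in batch 1 summed to 10.2 RPM in siCtrl (8.39 to 12.2) and to 2.72 RPM in siStar-PAP (1.98 to 3.64), 4.27 RPM in siPAPα (3.50 to 5.15) and 3.31 RPM in siPAPγ (2.45 to 4.38). In the table of siPAPα+γ, 10 sites of 6 genes summed to 10.9 RPM in siCtrl and 4.47 RPM in the KD. In batch 2, 6 sites of 6 genes summed to 17.2 RPM in siCtrl (13.8 to 21.3) and 9.18 RPM in siStar-PAP (6.53 to 12.5). Every KD was below its siCtrl, with no overlap of the counting intervals. Over all genes the antisense sum of batch 1 was 3686 RPM in siCtrl and between 2188 and 2576 RPM in siStar-PAP, siPAPα and siPAPγ. In the table of siPAPα+γ it was 4318 RPM in siCtrl and 3110 RPM in the KD. In batch 2 it was 5448 RPM in siCtrl and 3728 RPM in siStar-PAP. The KDs share a siCtrl library except in batch 2, and no test was made.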
